A study of Mus musculus with 10 samples.

Results

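A set of 48 predicted long non-coding RNAs (lncRNAs) abundant in mouse sperm was followed across sperm and testes of control mice and of mice given cadmium. The members were chosen by their counts in control sperm: they are the predicted lncRNA transcripts with an expected count (the number of read pairs assigned to a transcript by estimation) of at least 50 in each of the 4 control sperm samples. The deposited tables held 84289 transcripts, of which 11596 were predicted lncRNAs, and 4239 of these were listed above 0 in control sperm. The minimum was met by 50 predicted lncRNAs, and the transcripts of 2 genes, LXLOC_037274 and LXLOC_042885, were left out by the rule. The 48 members came from 46 genes, of which 34 had a single listed transcript, 12 had more (up to 6) and 2 gave 2 members each. Since control sperm counts chose the members, high levels in control sperm are a property of the choice and not a result.

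LncRNAs are transcripts that are longer than small regulatory RNAs and have no recognised protein-coding reading frame. A predicted lncRNA is a transcript model that was assembled from the reads and scored as non-coding, without an entry in an annotation. Mature sperm are transcriptionally silent, so their RNA is carried over from the germ cells of the testis or taken up in the epididymis, whereas testes tissue holds all stages of germ cells together with Sertoli, Leydig and other somatic cells. The sources used here give no function for these transcript models, so they are named by their transcript and gene identifiers.

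The study sequenced RNA from C57BL/6 mice in 4 groups. Their age was 3 to 5 months per the labels, while the study's methods give a range in weeks that starts lower. Controls were injected with saline and gave 4 control sperm and 2 control testes samples. Cadmium-treated mice received 1 intraperitoneal injection of CdCl2 at 3 mg/kg and gave 2 cadmium sperm and 2 cadmium testes samples, and all mice were killed on day 35. Sperm swam out of the vas deferens and cauda epididymis, were treated to lyse somatic cells and were pooled over mice. Testes samples were whole tissue. The study left control sperm 1 out of its own account because it correlated less well with the other samples, and it was kept here because the rule names it. No source used here says whether the 2 cadmium samples of a tissue came from separate mice, so p-values measure only the spread between these samples, which may be technical.

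Depth, as the sum of expected counts, was 366455 to 1058017 in control sperm, 1155491 to 1254477 in cadmium sperm, and 2606086 to 2866856 over the 4 testes samples. The detection floor, set at 3 counts and covering counting error only, was 0.000105% to 0.000819% of a sample. Levels are given as FPKM (fragments scaled to transcript length and sequencing depth), so that transcripts of unlike length can be compared. The labelled cell type was checked against its markers. Prm2, which encodes a protamine that packs sperm DNA, was listed in every sample at 147 to 438 FPKM. Prm1 was at 0 in control sperm 3. The sperm and late spermatid list (18 genes) summed to 378 to 623 FPKM in control sperm and 562 to 566 in cadmium sperm. In testes it summed to 619 to 713 FPKM, which overlapped the range of control sperm. Of the 18 genes, 3 were listed in all control sperm samples and 12 in both cadmium sperm samples. In each testes group 17 were listed in all samples. Single genes went both ways. Tnp1 was at 0 to 6.21 FPKM in sperm and 88.1 to 140 in testes, and Tssk6 at 12.8 to 167 and 6.48 to 10.6. Of 8 markers of spermatogonia and spermatocytes, 0 were listed in control sperm and 2 in cadmium sperm, where the list summed to 0.31 and 3.18 FPKM. It summed to 4.39 to 6.66 FPKM in control testes and 3.46 to 5.27 FPKM in cadmium testes. The 10 epididymal markers summed to 0.75 to 6.77 FPKM in control sperm and 5.99 to 6.96 FPKM in cadmium sperm, and the 7 leukocyte markers to 0 to 0.93 and 1.70 to 5.13 FPKM. In control and cadmium testes the epididymal sums were 3.33 to 7.11 and 2.35 to 9.60 FPKM. The leukocyte sums there were 3.29 to 4.25 and 3.58 to 3.96 FPKM, so neither list separated sperm from testes. The 8 Sertoli cell markers summed to 0 to 14.8 FPKM in control sperm and 3.23 to 10.2 FPKM in cadmium sperm. They summed to 5.23 to 5.99 FPKM in control testes and 2.64 to 3.59 FPKM in cadmium testes. The 7 Leydig cell markers summed to 0 to 27.5 FPKM in control sperm, where the highest value was Star in control sperm 3. Their sum was 3.47 to 6.90 FPKM in cadmium sperm, 20.6 to 22.2 FPKM in control testes and 15.6 to 21.6 FPKM in cadmium testes.

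The members held a small share of each sperm library. They took 3.22%, 2.83%, 3.29% and 3.06% of the expected counts of the control sperm samples (3.10% ± 0.203, SD, n = 4) and 3.63% and 3.52% of the cadmium sperm samples (3.58% ± 0.0738, SD, n = 2). The share was 1.15% and 1.59% in control testes (1.37% ± 0.311, SD, n = 2) and 1.25% and 1.76% in cadmium testes (1.51% ± 0.360, SD, n = 2). All 6 sperm samples thus lay above all 4 testes samples, which for control sperm follows from the choice of members. Between cadmium sperm and cadmium testes, neither of which chose the members, the share differed by 2.37-fold without overlap, with p = 0.333 in a two-sided exact permutation test, the smallest p that 2 against 2 samples allow. Cadmium sperm ordered the members much like control sperm (Spearman's rho 0.978), so this contrast is not free of the choice. Cadmium and control testes overlapped (1.10-fold, two-sided exact permutation p = 0.667). Of the counts on predicted lncRNAs alone, the 48 members took 21.4 to 30.6% in control sperm, 32.9 to 33.9% in cadmium sperm and 14.8 to 21.4% in testes. In a bulk sample, a lower level can come from fewer cells of a type or from less RNA per cell, and these cannot be told apart.

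**Figure D1:**
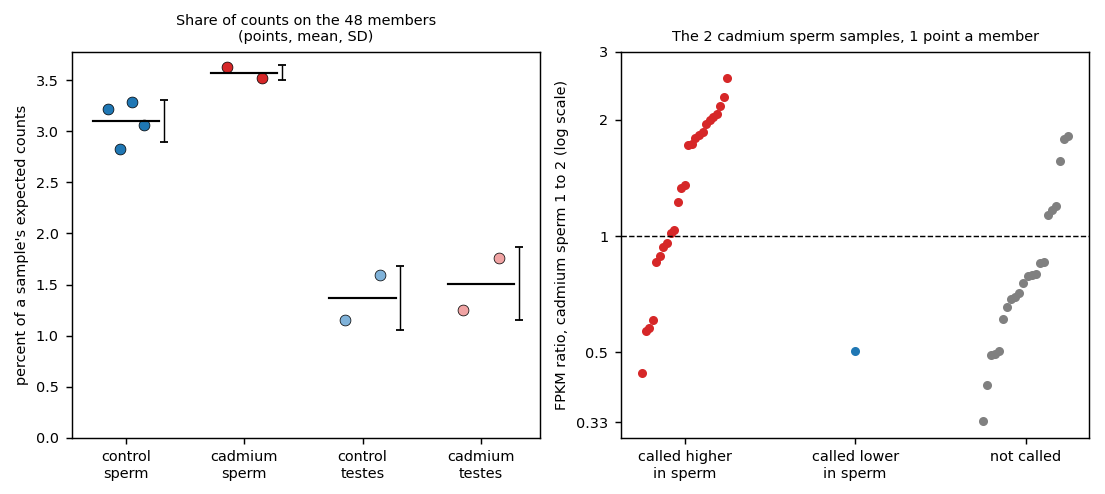
Left, percent of each sample's expected counts that fell on the 48 members, by group, with points for samples, a line for the mean and a bar for the SD; the sperm samples lie between 2.83 and 3.63% and the testes samples between 1.15 and 1.76%. Right, FPKM ratio of cadmium sperm sample 1 to sample 2 on a log axis, 1 point per member, by call in the comparison of cadmium sperm with cadmium testes; 17 of the 25 members called higher in sperm lie above 1, and 16 of the 22 members not called lie below 1.

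The level of the members in control sperm ran from 3.51 to 4674 FPKM (means of 4 samples), with a median of 148. The mean was over 1000 FPKM for 4 members, 100 to 1000 for 27, 10 to 100 for 16 and 1 to 10 for 1. The 3 highest members held 43.2 to 50.6% of the members' summed FPKM in control sperm and 38.8 to 40.4% in cadmium sperm. LTCONS_00094743 (LXLOC_055134, 1058 bases) was the highest, at 6135, 3463, 4760.4 and 4338 FPKM in the 4 control sperm samples, 4055 and 4767 in cadmium sperm, 1659 and 2447 FPKM in control testes and 1829.8 and 2459.6 FPKM in cadmium testes. It was the highest member in cadmium sperm as well, and each sperm sample lay above each testes sample. The shortest member, LTCONS_00096993 (LXLOC_056508, 411 bases), followed at 2083, 2612, 2557 and 2085 FPKM in control sperm, 1121 and 1842 in cadmium sperm, 1632 and 2141 FPKM in control testes and 1771 and 2178 FPKM in cadmium testes, so that sperm and testes were at similar levels. LTCONS_00051243 (LXLOC_030022, 1916 bases) came next and, unlike these, was low in testes.

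The remaining members among the 10 highest had mean levels of 443 to 1229.6 FPKM in control sperm. LTCONS_00010979 (LXLOC_006624, 1772 bases) was at 658, 649.5, 988 and 856 FPKM in control sperm, 679 and 976 in cadmium sperm, 378 and 527 FPKM in control testes and 402 and 543 FPKM in cadmium testes. LTCONS_00145022 (LXLOC_084561, 719 bases) was at 564, 441, 376 and 762 FPKM in control sperm and 437 and 668 in cadmium sperm, within which range its values in control testes (285 and 468) and cadmium testes (322 and 572) partly fell. LTCONS_00156808 (LXLOC_091792, 882 bases) was at 287, 551, 367 and 567 FPKM in control sperm and at 932 and 822 in cadmium sperm. The cadmium values lay above all control ones, as they did for 17.1% of all transcripts tested. Its testes values were 259 and 388 FPKM in controls and 302 and 443 after cadmium. LTCONS_00069769, LTCONS_00068688, LTCONS_00143525 and LTCONS_00143523 complete the 10 and are described with their comparisons.

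The samples ordered the members alike within a tissue. Across the 48 members, Spearman's rho was 0.978 between mean FPKM in control and cadmium sperm and 0.990 between control and cadmium testes, while between a sperm and a testes group it was 0.616 to 0.640. Pairs of control sperm samples gave 0.927 to 0.977. These values are across transcripts of the same libraries and are given as a description. The pair of cadmium sperm samples gave 0.912, the lowest of the pairs within a group. The members were steady to unlike degrees over the control sperm samples. LTCONS_00163739, LTCONS_00057209 and LTCONS_00016576 had the smallest SD of log2(FPKM + 1), for example 39.99, 48, 44.6 and 49 FPKM for LTCONS_00057209. LTCONS_00028380, LTCONS_00149361 and LTCONS_00057977 had the largest, and LTCONS_00149361 (LXLOC_087123, 15272 bases) read 15.8, 10.1, 40.7 and 18.3 FPKM.

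**Figure D2:**
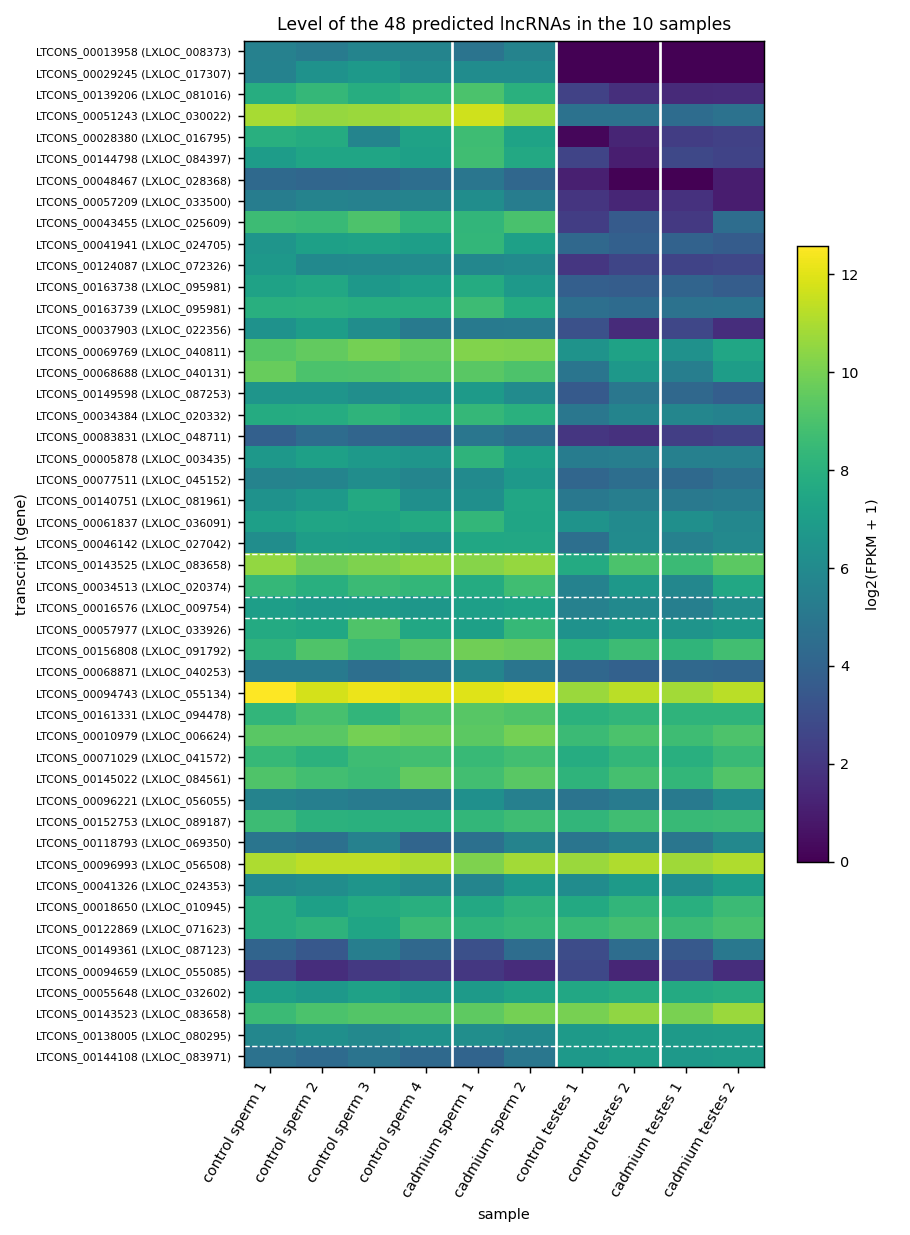
Level of each member (rows, ordered by log2 fold change between cadmium sperm and cadmium testes) in each of the 10 samples (columns), as log2(FPKM + 1). Dashed lines separate members called different between cadmium sperm and cadmium testes from members not called; the rows at the top are dark in all 4 testes samples, and the last row, LTCONS_00144108, is darker in sperm than in testes.

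Members were longer than other predicted lncRNAs of sperm. Their length ran from 411 to 70305 bases with a median of 2462.5, against a median of 1325 for the 4239 predicted lncRNAs listed in control sperm, and 13 members (27.1%) against 8.70% were over 5000 bases. At a given FPKM the count of a transcript rises with its length, so length is not independent of the rule. The longest member, LTCONS_00094659 (LXLOC_055085), was also the lowest per length, at 4.49, 2.12, 3.21 and 4.22 FPKM in control sperm, 3.13 and 2 in cadmium sperm, 5.54 and 1.54 FPKM in control testes and 6.22 and 2.11 FPKM in cadmium testes. The groups overlapped. Near the minimum, the members with the lowest count in any control sperm sample were LTCONS_00122869 (51), LTCONS_00083831 (52) and LTCONS_00028380 (52.3). The predicted lncRNAs just outside were LTCONS_00169857 (49), LTCONS_00133868 (46.1) and LTCONS_00081317 (45.5), of which LTCONS_00133868 was at 109 to 246 FPKM in control sperm and 672 to 701 FPKM in control testes. The predicted lncRNAs for which the study gives primers were not members. Its supplementary lists of lncRNAs were not searched. LTCONS_00023677 (LXLOC_013896) and LTCONS_00052481 (LXLOC_030768) each had a control sperm sample with a count of 0, and LTCONS_00160905 had at most 3.63 counts in control sperm.

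The comparison of cadmium sperm with cadmium testes asks which of these transcripts were held at another level in sperm than in testes, in samples that did not choose them. Of the 48 members, 25 were higher in sperm, 1 was lower and 22 did not pass the test (edgeR's quasi-likelihood test on expected counts with TMM scaling, Benjamini-Hochberg adjusted p under 0.05 over all transcripts tested and more than 2-fold). Over all 27299 transcripts tested, 15.1% were called higher, 13.9% lower and 29% in either direction. Among transcripts of any class that met the same count minimum (629 tested), 50.4% were called, 44.7% higher and 5.72% lower, and among known lncRNAs with that minimum (508 tested) 47.8%, 41.5% higher and 6.3% lower. The 52.1% of members called higher stand closer to these shares than to that over all transcripts, and the difference was not tested. Of the 25, 3 reached the FPKM minimum of the test only through cadmium sperm (LTCONS_00013958, LTCONS_00029245 and LTCONS_00048467) and so could only be higher there. The members' median log2 fold change was 1.79 (quartiles 0.37 and 3.70) with 37 of 48 above 0, against a median of -0.29 and 44.1% above 0 over all transcripts tested. Transcripts of any class with the same minimum had a median of 1.25 with 69.8% above 0. Known lncRNAs with that minimum had 1.00 and 68.1%.

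Without cadmium testes 1, 0 of 48 members passed, as did 0 of the 20462 transcripts tested, and the members' median log2 fold change was 1.30. Without cadmium sperm 1, 25 of 45 members tested passed beside 5354 of 23093 transcripts, without cadmium sperm 2, 22 of 45 beside 5608 of 23635, and without cadmium testes 2, 23 of 48 beside 3582 of 21698. Each such fit leaves a group with a lone sample, which is assumed to vary like the other group. Summing the counts of all transcripts of a gene, a setting added after the data were seen, called 26 of the 46 genes, 25 of them higher, beside 8153 of all 25780 genes tested, 4168 of them higher. In FPKM, both cadmium sperm samples lay above both cadmium testes samples for 33 members, below them for 5 and overlapped for 10, where 24.7% of all transcripts tested lay above and 41.6% below.

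**Figure D3:**
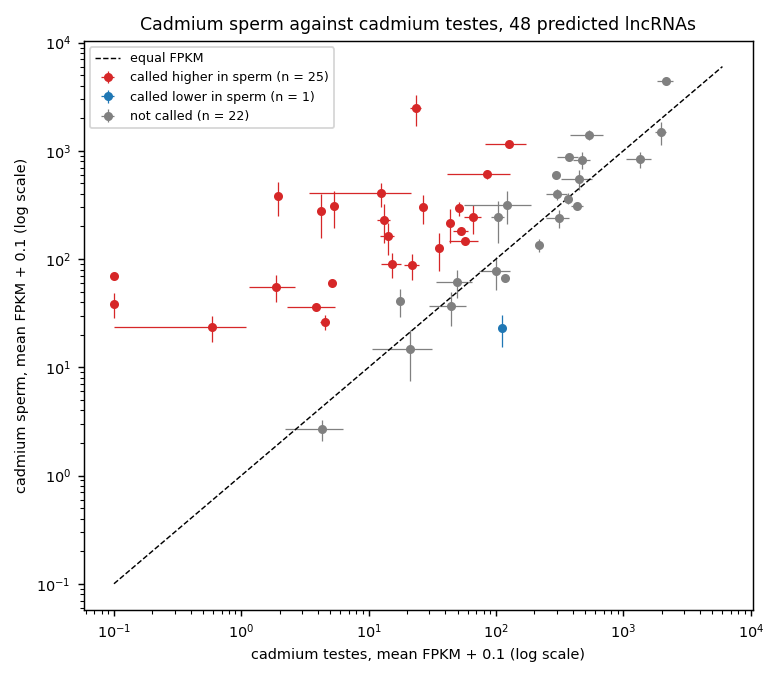
Mean FPKM of each of the 48 members in cadmium sperm (vertical) against cadmium testes (horizontal), both with 0.1 added and on log axes. Bars join the 2 samples of a group, colours give the call, and the dashed line marks equal levels; the 25 members called higher lie above it, and the single member called lower lies under it.

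Of the members called higher, 10 were over 16-fold higher by the fit. Among them, 2 were listed at 0 in all 4 testes samples. LTCONS_00013958 (LXLOC_008373, 21761 bases) was at 44.5, 37.1, 49.3 and 49.8 FPKM in control sperm and 28.1 and 48.6 in cadmium sperm. LTCONS_00029245 (LXLOC_017307, 2851 bases) was at 46.1, 84.9, 109 and 68 FPKM in control sperm and 69.6 and 68.4 in cadmium sperm. Against 3 counts per testes library, the first was 777-fold and the second 180-fold higher as a share of all counts in cadmium sperm. That floor does not cover the split of reads between transcripts of a gene, so these folds are not lower bounds. Summed over its transcripts, LXLOC_008373 was not called (log2 fold change -0.41). Both genes have other listed transcripts in testes, which are given with the isoforms.

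LTCONS_00139206 (LXLOC_081016, 3743 bases) was at 231, 331, 229 and 303 FPKM in control sperm and 513 and 251 in cadmium sperm. It was at 4.53 and 2.22 FPKM in control testes and 1.8 and 1.91 FPKM in cadmium testes, a log2 fold change of 7.86 ± 0.84 (SE, adjusted p = 3.31e-08, edgeR) between the cadmium groups. Each of the 6 sperm samples was far above each of the 4 testes samples. LTCONS_00051243, among the 3 highest members in control sperm, was at 1987, 1531, 1670.2 and 1817 FPKM in control sperm, 3303 and 1688 in cadmium sperm, 25.6 and 25.6 FPKM in control testes and 21.1 and 25.8 FPKM in cadmium testes. Its log2 fold change was 6.89 ± 0.93 (SE, adjusted p = 1.22e-06, edgeR), and the 4 testes samples were close to each other while cadmium sperm 1 lay above every other sperm sample.

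LTCONS_00028380 (LXLOC_016795, 2925 bases) varied most among the control sperm samples, at 240.2, 214, 49.5 and 154 FPKM, with control sperm 3 the low one. In cadmium sperm it was at 402 and 157 FPKM, in control testes at 0.15 and 1.5 and in cadmium testes at 3.86 and 4.45 (log2 fold change 6.21 ± 0.75, SE, adjusted p = 1.9e-07, edgeR). LTCONS_00144798 (LXLOC_084397, 1108 bases) was at 122, 169.6, 167 and 141 FPKM in control sperm, 425 and 195 in cadmium sperm, 4.92 and 1.1 FPKM in control testes and 5.6 and 4.88 FPKM in cadmium testes. Both cadmium sperm samples lay above all 4 control ones for this transcript, as for 17.1% of all transcripts tested, and every testes sample was under 6 FPKM.

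The other members over 16-fold higher had fitted log2 fold changes of 4.33 to 5.63. LTCONS_00048467 (LXLOC_028368, 12176 bases) was at 18.9, 16.8, 17.1 and 22.5 FPKM in control sperm and 29.8 and 17.2 in cadmium sperm, 1.15 and 0.07 FPKM in control testes and 0 and 0.98 FPKM in cadmium testes. Its call was lost with DESeq2 (adjusted p = 0.124) and with limma on log2(FPKM + 0.1) (adjusted p = 0.0556). LTCONS_00057209 (LXLOC_033500, 6025 bases) was at 71.2 and 39.7 FPKM in cadmium sperm, 2.79 and 1.53 FPKM in control testes and 2.52 and 1.04 FPKM in cadmium testes. LTCONS_00043455 (LXLOC_025609, 2914 bases) was at 401, 372, 542 and 288 FPKM in control sperm and 305 and 504 in cadmium sperm. In testes it differed between samples, at 3.87 and 11.2 FPKM in controls and 3.3 and 21.6 after cadmium, the second sample being the higher in both groups. LTCONS_00041941 (LXLOC_024705, 3663 bases) was at 94, 141, 151 and 131 FPKM in control sperm, 322 and 140.2 in cadmium sperm, 18.2 and 13.6 FPKM in control testes and 14.5 and 11.6 FPKM in cadmium testes. Here cadmium sperm 1 lay apart from the other 5 sperm samples, while both cadmium sperm samples lay far above every testes sample.

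**Figure D4:**
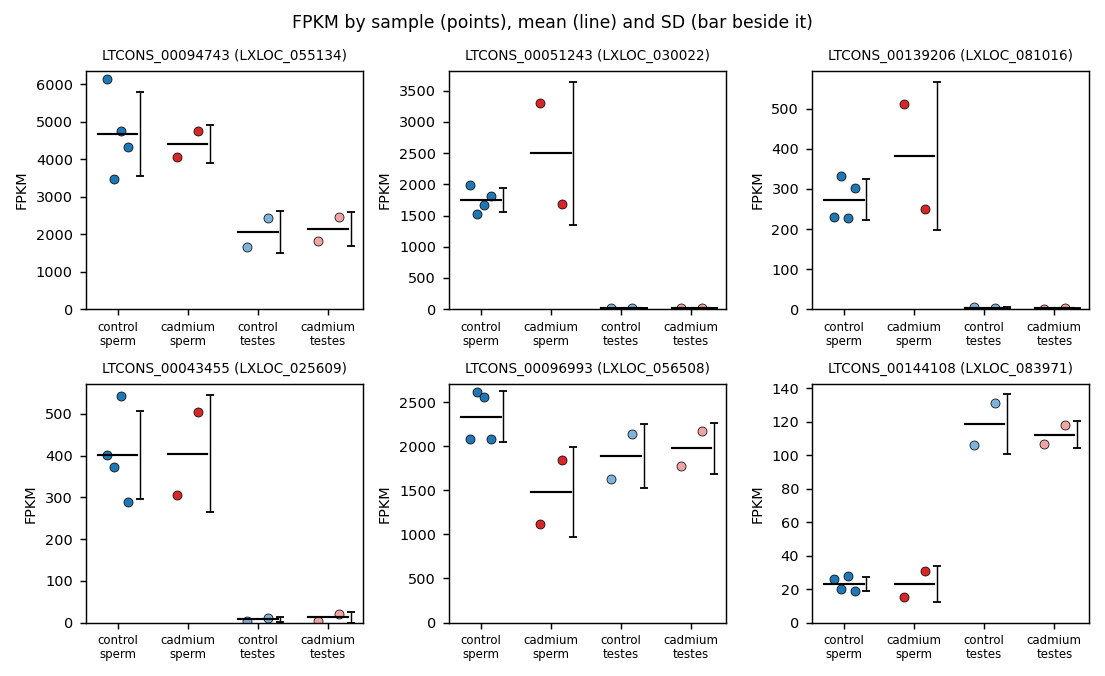
FPKM in each sample (points) with the group mean (line) and SD (bar) for 6 members, on linear axes from 0. LTCONS_00051243, LTCONS_00139206 and LTCONS_00043455 are near 0 in testes, LTCONS_00094743 is lower in testes than in sperm, LTCONS_00096993 is at similar levels, and LTCONS_00144108 is higher in all 4 testes samples than in all 6 sperm samples.

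A further 15 members were called higher with log2 fold changes of 1.52 to 3.78. The most abundant of them were LTCONS_00069769 (LXLOC_040811, 1100 bases), at 605, 766, 981 and 765 FPKM in control sperm, 1184 and 1139.8 in cadmium sperm, 87.9 and 149.6 FPKM in control testes and 81.7 and 171 FPKM in cadmium testes (log2 fold change 3.36 ± 0.69, SE, adjusted p = 0.000379, edgeR), and LTCONS_00068688. The latter (LXLOC_040131, 2460 bases) was at 795, 521, 537 and 591 FPKM in control sperm, 668 and 545 in cadmium sperm, 28.2 and 103 FPKM in control testes and 41 and 129 FPKM in cadmium testes (log2 fold change 2.94 ± 0.72, SE, adjusted p = 0.00215, edgeR). For both, the second testes sample was above the first in each group, and each of these samples was still below each sperm sample.

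LTCONS_00124087 (LXLOC_072326, 5484 bases) was at 56.4 and 63.6 FPKM in cadmium sperm against 4.76 and 5.4 in cadmium testes, and LTCONS_00037903 (LXLOC_022356, 5957 bases) at 34.9 and 37.3 against 5.39 and 2.18. LTCONS_00037903 had read 84.5, 129, 70.3 and 35.8 FPKM in control sperm, so the cadmium sperm values lay at the lower end of that range. LTCONS_00083831 (LXLOC_048711, 9202 bases) was low in both tissues, at 13.3, 20.5, 16 and 14.5 FPKM in control sperm, 30.01 and 22.1 in cadmium sperm, 2.92 and 2.46 FPKM in control testes and 4.05 and 4.77 FPKM in cadmium testes. Its 2 cadmium sperm values exceeded all control sperm values and its 2 cadmium testes values exceeded both control testes values. The same held for 17.1% of all transcripts tested in sperm and for 8.51% in testes.

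Of the rest, LTCONS_00034384 (LXLOC_020332) was at 336 and 252 FPKM in cadmium sperm and 54.3 and 47.3 in cadmium testes, LTCONS_00149598 (LXLOC_087253) at 114 and 66.5 against 18 and 12.4, and LTCONS_00005878 (LXLOC_003435) at 292 and 141 against 43.3 and 44.2. LTCONS_00077511 (LXLOC_045152) was at 63.5 and 112 FPKM in cadmium sperm and 18.7 and 24.6 in cadmium testes, LTCONS_00140751 (LXLOC_081961) at 77.2 and 175 against 33.3 and 37.3, and LTCONS_00061837 (LXLOC_036091) at 317 and 170.3 against 75.6 and 56.5. LTCONS_00046142 (LXLOC_027042) was at 179 and 187 FPKM in cadmium sperm and 46 and 60.1 in cadmium testes. In each of these the sperm samples lay above the testes samples, and the log2 fold changes were 1.99 to 2.80. Over 8 other settings that left out no sample, LTCONS_00140751 was called in 5. LTCONS_00061837, LTCONS_00077511 and LTCONS_00046142 were called in 7 of the 8 each. LTCONS_00016576 (LXLOC_009754, 2723 bases) was the smallest change that passed, at 134 and 157 FPKM in cadmium sperm and 42.5 and 72.4 in cadmium testes (log2 fold change 1.52 ± 0.59, SE, adjusted p = 0.0497, edgeR). The call was lost in most other settings, including without cadmium sperm 2 and without cadmium testes 2. LTCONS_00140751 likewise lost its call without cadmium sperm 2 and without cadmium testes 2, and LTCONS_00061837 without cadmium testes 2.

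The single member called lower in sperm was LTCONS_00144108 (LXLOC_083971, 11584 bases). It was at 25.8, 19.9, 27.8 and 18.9 FPKM in control sperm and 15.4 and 30.6 in cadmium sperm, and at 106 and 131 FPKM in control testes and 107 and 118 FPKM in cadmium testes (log2 fold change -2.02 ± 0.66, SE, adjusted p = 0.0189, edgeR). All 4 testes samples were above all 6 sperm samples. Without cadmium sperm 1 (log2 fold change -1.51) or cadmium testes 2 (-1.83) it no longer passed. The gene lists a second transcript, LTCONS_00144107, and the member held 76.6 to 91.7% of the gene's FPKM in cadmium sperm and 87.0 to 89.8% in cadmium testes.

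The 22 members that did not pass had log2 fold changes of -0.59 to 1.59. Their sperm values lay above the testes values without overlap for 8, below for 4 and overlapped for 10. Those above include the most abundant member, LTCONS_00094743 (log2 fold change 1.26 ± 0.77, SE, adjusted p = 0.221, edgeR), and LTCONS_00010979 (1.03 ± 0.66, SE, adjusted p = 0.247, edgeR). LTCONS_00034513 (LXLOC_020374, 7656 bases) read 212 and 421 FPKM in cadmium sperm against 55.8 and 187 in cadmium testes, and LTCONS_00057977 (LXLOC_033926, 1938 bases) read 141 and 343 against 91.5 and 115. LTCONS_00057977 passed the test without cadmium sperm 1 (log2 fold change 2.09).

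The 4 uncalled members with sperm below testes were LTCONS_00143523, LTCONS_00122869, LTCONS_00055648 and LTCONS_00138005, which together with LTCONS_00144108 also had the highest ratio of control testes to control sperm. LTCONS_00055648 (LXLOC_032602, 1049 bases) was at 134, 105, 147 and 103 FPKM in control sperm, 115 and 152 in cadmium sperm, 187 and 218 FPKM in control testes and 208 and 225 FPKM in cadmium testes. LTCONS_00138005 (LXLOC_080295, 4809 bases) was at 56.6, 76.4, 59.98 and 83.3 FPKM in control sperm, 73.3 and 61.5 in cadmium sperm, 115 and 132 FPKM in control testes and 115 and 119 FPKM in cadmium testes. In both, every testes sample exceeded every sperm sample although the fit on counts did not call them. LTCONS_00122869 (LXLOC_071623, 883 bases) overlapped in the controls, with 228, 278, 167 and 382 FPKM in sperm and 355 and 459.6 in testes. Uncalled members at near equal levels include LTCONS_00041326 (LXLOC_024353), LTCONS_00118793 (LXLOC_069350) and LTCONS_00018650 (LXLOC_010945), each with overlapping cadmium groups. LTCONS_00018650, for example, read 195 and 283 FPKM in cadmium sperm and 248 and 378 in cadmium testes. LTCONS_00152753 (LXLOC_089187) read 319 and 405 against 353 and 382 FPKM, LTCONS_00071029 (LXLOC_041572) 351 and 444 against 245 and 362, and LTCONS_00096221 (LXLOC_056055) 78.5 and 44 against 33.7 and 65.2. LTCONS_00068871 (LXLOC_040253), at 52.5 and 28.8 FPKM in cadmium sperm and 17.9 and 16.9 in cadmium testes, lay higher in sperm without passing the test (log2 fold change 1.41, adjusted p = 0.0582, edgeR).

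The 2 cadmium sperm samples, which themselves entered the calls, differed from each other. Of the 25 members called higher, 17 were higher in cadmium sperm 1, 6 of them by over 2-fold. Of the 22 members not called, 16 were lower in cadmium sperm 1, 4 of them by over 2-fold. No pair of samples of a group agreed within counting noise. The chi-square of counts per degree of freedom grows with depth and with the count of a transcript. Over all transcripts but those of lowest count, it was 18.5 for the cadmium sperm pair and 10.4 to 18.1 for pairs of control sperm. For control testes it was 12.7 and for cadmium testes 10.3. Over the members alone it was 117 for the cadmium sperm pair and 12.2 to 24.3 for pairs of control sperm. It was 42.8 for control testes and 61.1 for cadmium testes. Since the members were chosen for high counts, these values cannot be set against those over all transcripts. Transcripts with the same minimum were not compared. The testes samples differed as well. The second sample was above the first for 33 of 46 listed members in control testes and 35 of 46 in cadmium testes. Over the 33428 and 32415 transcripts that reached 1 FPKM in either sample, it was above for 33.8% and 36.4%. Those transcripts were not chosen by counts as the members were, and transcripts with the same minimum were not compared. The second sample also listed fewer transcripts, 47524 against 56471 in control testes and 48946 against 54235 in cadmium testes. Of the sperm and late spermatid list, 10 of 18 listed genes were higher in control testes 2 than in control testes 1 (sums of 619 and 682 FPKM). In cadmium testes 2, 11 of 17 were higher than in cadmium testes 1 (713 and 648 FPKM). Of the listed epididymal markers, 4 of 5 were higher in control testes 2 (7.11 and 3.33 FPKM) and 6 of 6 in cadmium testes 2 (9.60 and 2.35 FPKM). Of 10 germ-cell mRNAs of translation and storage, 9 and 7 were higher in these samples. Sertoli cell markers gave 4 of 7 and 2 of 6, and Leydig cell markers 3 of 6 and 2 of 4. Leukocyte markers gave 1 of 4 and 3 of 5, and those of spermatogonia and spermatocytes 2 of 5 and 5 of 7. The part of cell composition in the members' difference was not tested.

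Several members are 1 of several listed transcripts of a gene, and their values depend on how shared reads were split between isoforms. The study reports that sperm RNA was shifted to small sizes and lacked the ribosomal RNA peaks of testes RNA. The part of RNA integrity in the isoform shares was not tested. The expected counts of 19 members were whole numbers in every sample (within 0.001), while 29 had fractional counts in at least 1 sample, 13 of them in all 10. The gene LXLOC_008373 has 3 listed transcripts of 21109, 21761 and 22667 bases. In sperm the member LTCONS_00013958 held 94.8 to 100% of the gene's FPKM in controls and 85.6 and 93.6% after cadmium, and in testes 0%. The testes signal of the gene fell on LTCONS_00013957, at 58.2 and 38.7 FPKM in control testes and 56.4 and 46.1 FPKM in cadmium testes, and on LTCONS_00013956. In sperm LTCONS_00013957 was at most 4.74 FPKM. Summed over its transcripts, the gene was at 32.9 and 51.9 FPKM in cadmium sperm and 68.4 and 64.2 in cadmium testes and was not called (log2 fold change -0.41, adjusted p = 0.676, edgeR on gene sums). Both tissues therefore listed the gene, by different transcript models.

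The gene LXLOC_017307 differed from this pattern. Its 6 listed transcripts summed to 119, 114, 138 and 92.5 FPKM in control sperm, 129 and 107 in cadmium sperm, 2.1 and 2.11 FPKM in control testes and 1.37 and 2.66 FPKM in cadmium testes, so the whole gene was low in testes (log2 fold change 6.07, adjusted p = 7.15e-16, edgeR on gene sums). LTCONS_00029245 held 38.9 to 79.0% of its FPKM in control sperm and 53.8 to 63.8% in cadmium sperm. LXLOC_016795 also kept its call as a gene (6.04, adjusted p = 2.68e-14, edgeR on gene sums). There the member LTCONS_00028380 made up all of the FPKM in sperm, and a shorter transcript, LTCONS_00028379, was listed in testes only, at mean levels of 2.62 FPKM in controls and 1.35 after cadmium.

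Of the genes with 2 members, LXLOC_083658 differed between tissues in the estimated share of its transcripts. Both transcripts had fractional counts in all 10 samples, and the part of RNA integrity in the difference was not tested. Its 699-base transcript LTCONS_00143525 was at 1485, 928, 1129 and 1377 FPKM in control sperm, 1247 and 1559 in cadmium sperm, 205 and 520.2 FPKM in control testes and 384 and 689 FPKM in cadmium testes. The 1636-base transcript LTCONS_00143523 was at 378, 512, 601 and 592 FPKM in control sperm, 693 and 975 in cadmium sperm, 1014 and 1458 FPKM in control testes and 1043 and 1657 FPKM in cadmium testes. The shorter one was the more abundant in all 6 sperm samples and the less abundant in all 4 testes samples. In cadmium sperm it held 62.9% of the gene's FPKM (mean of 64.3 and 61.5%) and in cadmium testes 28.1% (mean of 26.9 and 29.4%), with p = 0.333 in a two-sided exact permutation test, the smallest that 2 against 2 samples allow.

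Neither transcript of LXLOC_083658 passed the test alone (log2 fold change 1.59 with adjusted p = 0.0587, and -0.49 with adjusted p = 0.645, edgeR), and the gene sum stood at 0.05 (adjusted p = 0.969). LTCONS_00143525 passed without cadmium sperm 1 (log2 fold change 1.89). The other gene with 2 members, LXLOC_095981, kept its proportions. The FPKM ratio of its 1349-base transcript LTCONS_00163739 to its 2278-base transcript LTCONS_00163738 lay between 1.37 and 2.21 over the 10 samples. Both were called higher in cadmium sperm, with log2 fold changes of 3.69 and 3.73 (adjusted p = 2.81e-05 and 2.27e-05, edgeR). LTCONS_00163739 was at 247, 255, 229 and 229 FPKM in control sperm, 388 and 212 in cadmium sperm, 23 and 19.8 FPKM in control testes and 25.9 and 26.9 FPKM in cadmium testes.

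**Figure D5:**
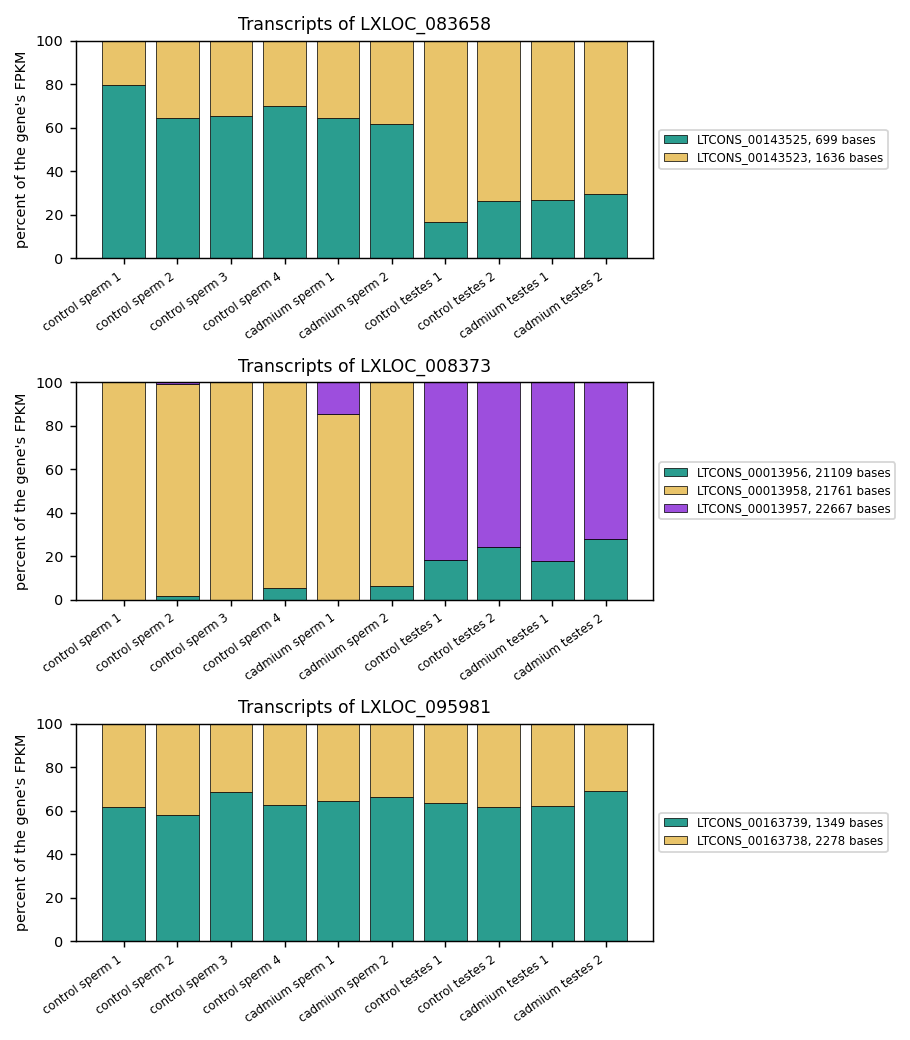
Percent of a gene's FPKM held by each of its listed transcripts in each sample, stacked to 100%, for LXLOC_083658, LXLOC_008373 and LXLOC_095981. The 699-base transcript of LXLOC_083658 holds 61.5 to 79.7% in sperm and 16.8 to 29.4% in testes, LXLOC_008373 is carried by another transcript in testes than in sperm, and the shares of LXLOC_095981 are similar in all 10 samples.

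The comparison of cadmium testes with control testes asks whether the injection changed these transcripts in the tissue. Of 45 members tested, 0 were called by edgeR's quasi-likelihood test (Benjamini-Hochberg adjusted p), as were 0% of the 28423 transcripts tested. At an unadjusted p under 0.05, 1 member and 1.21% of all transcripts passed, and DESeq2 and limma called 0 members as well. The member was LTCONS_00028380, at 0.15 and 1.5 FPKM in control and 3.86 and 4.45 in cadmium testes (log2 fold change 2.39 ± 0.93, SE, adjusted p = 1.00, edgeR), named after its values were seen. Without control testes 2 it was the 1 member called, beside 108 of the 26366 transcripts then tested, and its expected count of 1.27 in control testes 1 lay under the floor of 3 counts.

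The members' median log2 fold change between the testes groups was 0.20 with 36 of 45 above 0, against 0.02 and 51.8% for all transcripts. It was 0.065 with 64.4% above 0 for transcripts of any class with the same minimum, and 0.057 with 63.3% for known lncRNAs with it. The direction of the members' median depended on single samples, being 0.42 without cadmium testes 1, 0.66 without control testes 2, -0.24 without cadmium testes 2 and -0.14 without control testes 1. In FPKM, the cadmium samples lay above the control samples for LTCONS_00163739, LTCONS_00028380, LTCONS_00005878 and LTCONS_00083831 and below for LTCONS_00139206, while 43 members overlapped; over all transcripts tested 8.51% lay above and 10.3% below. For LTCONS_00005878 the testes values were 38.3 and 41 FPKM in controls and 43.3 and 44.2 after cadmium. The 4 and 1 members correspond to 8.33% and 2.08% of the 48.

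The comparisons with control sperm are given as descriptions, since control sperm chose the members. Against control testes, all 4 control sperm samples lay above both testes samples for 31 members and below for 4 (LTCONS_00143523, LTCONS_00055648, LTCONS_00138005 and LTCONS_00144108), and 13 overlapped, where 5.3% of all transcripts tested lay above and 40% below. The fitted median log2 fold change was 0.88 for the members and -1.51 for all transcripts, a distance of 2.39. It was 0.34 for transcripts of any class with the same minimum and 0.15 for known lncRNAs with it, so these too lay far above all transcripts. With RLE size factors in place of TMM the median of all transcripts moved to -1.32 and that of the members to 1.13, a distance of 2.45. Without control testes 1 the members' median was 0.55.

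Between cadmium and control sperm, the cadmium samples lay above all 4 control samples for 8 members, below for 1 and overlapped for 39, where 17.1% of all transcripts tested lay above and 0.771% below. The 8 were LTCONS_00069769, LTCONS_00143523, LTCONS_00156808, LTCONS_00161331, LTCONS_00144798, LTCONS_00016576, LTCONS_00046142 and LTCONS_00083831. LTCONS_00161331 (LXLOC_094478, 1294 bases), for example, was at 315, 477, 313 and 548 FPKM in control sperm and 643 and 550.4 in cadmium sperm, and LTCONS_00046142 (LXLOC_027042, 1800 bases) at 71, 127, 124 and 92.4 against 179 and 187. The 1 below was LTCONS_00096993, the shortest member. The median log2 fold change was 0.30 for the members and 0.42 for all transcripts with TMM, and 0.06 and 0.21 with RLE, so that the members lay slightly below the median of all transcripts with both. With TMM it was 0.23 for transcripts of any class with the same minimum and 0.22 for known lncRNAs with it. The members lay slightly above these. The members' median moved to 0.51 without cadmium sperm 1, 0.46 without control sperm 2 and 0.17 without cadmium sperm 2. The cadmium sperm samples were deeper than the control ones. They listed 34373 and 32121 transcripts, against 7721 to 30072 in control sperm. They also listed 5 of 7 leukocyte and 3 of 10 epididymal markers, against 2 of 7 and 2 of 10 in control sperm. The sperm and late spermatid list gave 17 of 18 against 15 of 18. Sertoli cell markers gave 4 of 8 against 3 of 8, and Leydig cell markers 2 of 7 in both. Markers of spermatogonia and spermatocytes gave 2 of 8 against 0 of 8. The part of other cells in the members' values was not tested.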

How the data were processed

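RNA of 10 mouse samples was measured by strand-specific, rRNA-depleted RNA sequencing. The authors filtered the reads and aligned them with SOAPaligner/SOAP2 per the study's methods, while the submitters' processing notes name HISAT and mm10; the tool that gave the expected counts is not given in the sources used here. For each transcript above 0 in a sample, the authors deposited an expected count, which is an estimate without normalization, and an FPKM, which is scaled by transcript length and depth. Transcripts not listed in a sample were taken as 0.

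The members and the lists were chosen with earlier results of these data known. Expected counts were rounded, and edgeR 4.0.16 (R 4.3.3) fitted its quasi-likelihood model with TMM scaling to every transcript that reached 1 FPKM in 2 or more samples of a comparison. Calls required a change over 2-fold and an adjusted p (Benjamini-Hochberg) under 0.05. The same fit gave the fold changes of the comparisons with control sperm, which are a description with no p because control sperm chose the members. DESeq2 1.42.0, limma 3.58.1 on log2(FPKM + 1), RLE size factors, other filters and leaving out samples were alternatives. On simulated data the fit recovered most large changes where replicates varied little, and few or none where they varied strongly. Which of these the present samples resemble was not measured, so the absence of calls does not show the absence of change. Python 3.11.15, pandas 2.3.3, scipy 1.17.1 and matplotlib 3.10.9 were used for shares, permutation tests and figures.

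Transcripts were named if among the 10 highest in control sperm, the 5 largest called changes in a direction, the 5 highest or lowest testes to sperm ratios (pseudocount 0.1), listed in no testes sample, in a gene with 2 members, named by the study, next to the minimum, among the longest or shortest 2, or among the 3 most or least variable in control sperm. Other members are given by their level or call.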

Additional observations from a re-analysis of the deposited data

Results flagged for a closer look

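In control sperm, the only group of 4 samples, 50 groups of values were screened for a sample far from the others, and 4 members stood out; chance alone gives about 1 in 20. LTCONS_00057977 (LXLOC_033926) read 549 FPKM in control sperm 3 against 182 to 205 FPKM in the other samples. LTCONS_00034384 (LXLOC_020332) read 288 FPKM in control sperm 3, the next highest being 222 FPKM, and LTCONS_00077511 (LXLOC_045152) read 71.3 FPKM there, the next highest being 51.2 FPKM. LTCONS_00124087 (LXLOC_072326) read 102 FPKM in control sperm 1, the next highest being 67.2 FPKM. Control sperm 3 was the sample with the fewest counts (366455).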

How the results depend on the processing

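Over the settings that left out no sample, 22 to 34 of the members were called between cadmium sperm and cadmium testes, and 20 members were called in all 9 of these settings on the same members. Leaving out a sample gave 0 to 25 calls, with 0 without cadmium testes 1. Between cadmium and control testes, leaving out a sample gave 0 to 1 calls. Over all transcripts, 7913 were called between cadmium sperm and cadmium testes in the main setting, 4914 with DESeq2, 1645 with all 10 samples in 1 fit and 0 without cadmium testes 1; between the testes groups the main setting called 0, no filter 354, DESeq2 22, the replicate block 15 and single samples left out 68 to 110, and 4 genes were called on gene sums.

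With the replicate number as a block, 34 members and 6856 of 27299 transcripts were called between cadmium sperm and cadmium testes, and 0 members between the testes groups. LTCONS_00094743 (adjusted p = 0.00528) and LTCONS_00010979 (adjusted p = 0.0336) were among the members that gained a call with the block. The deviations of samples with the same number correlated at r = 0.068 across transcripts and 0.29 across members between cadmium sperm and testes, and at 0.40 and 0.14 between the testes groups, and with 2 pairs the numbers are not shown to pair the samples. The block over shared numbers moved the median log2 fold change of control sperm against control testes from 0.88 to 1.15, RLE size factors moved it to 1.13, mean FPKM ratios to 1.46, and leaving out a sample gave 0.55 to 1.30. For cadmium against control sperm RLE gave 0.058 in place of 0.30, the block 0.30, and leaving out a sample 0.17 to 0.51.

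The cadmium sperm share of 3.58% of counts became 3.06% of FPKM and 4.16% of the counts on lncRNAs. A minimum of 20 counts gave 89 members and of 100 counts 27, and leaving out a control sperm sample 48 to 62. Of 501 values for 39 single members, 432 kept direction and side of the threshold, 47 lost and 11 gained a call, and 11 values of uncalled members changed sign. With a minimum of 10 counts these read 0.18 for LTCONS_00096993, 0.073 for LTCONS_00122869 and 0.00036 for LTCONS_00149361. When a sample was left out, the log2 fold change ranged from -0.98 to 0.14 for LTCONS_00094659, -0.66 to 0.28 for LTCONS_00096993, -0.73 to 0.051 for LTCONS_00122869, -1.09 to 0.039 for LTCONS_00143523, -0.14 to 1.15 for LTCONS_00145022 and -1.47 to 0.87 for LTCONS_00149361. The cause was not tested. The smallest detectable difference was not measured.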
